A study of Mus musculus with 18 samples.

Results

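The comparison set whole pancreas of mice without Otub2 against whole pancreas of wild-type mice, over all genes of the deposited pancreas table. Its members are the 3 pancreas libraries whose labels give the genotype OTUB2 -/- (called HOM, with the submitters' numbers HOM 10, HOM 19 and HOM 21) and the 3 whose labels give OTUB2 +/+ (WT 11, WT 12 and WT 16), 6 of the 18 samples of the series. The other 12 samples are 5 pancreata and 5 livers of heterozygous mice (HET) and 2 livers of wild-type mice. All 3 HOM mice were male, and WT 11 and WT 12 were male and WT 16 female, so a part of any difference that comes from sex cannot be told apart from genotype except in the 5 male libraries. Age, strain and the deleted part of Otub2 are not given in the sources used here, and no treatment is given for any group. The labels do not say that each sample came from a separate animal, so p-values measure the spread between these samples, which may be technical.

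OTUB2 is a deubiquitinase of the OTU family: it removes ubiquitin chains from other proteins and so can shield them from degradation or change their signalling. Its reported substrates include TRAF proteins of NF-kB signalling, the DNA damage proteins RNF8 and L3MBTL1, and the YAP and TAZ co-activators. The pancreas is made mostly of acinar cells, which secrete digestive enzymes into a branching duct system, with islets of hormone-secreting cells among them, and the stomach, duodenum and spleen lie against it.

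Only the 3′ end of a transcript was read, which makes counts of short and long transcripts alike. Totals ran from 50663 (HOM 19) to 205103 counts (HOM 10) in HOM and from 63483 (WT 12) to 188496 (WT 16) in WT. Of 55291 listed genes, 15283 had a count in at least 1 of the 6 libraries and 40008 had none. Levels are given as counts or as CPM, the counts per 1000000 counts of the library. A gene with 0 counts in all 3 libraries of a group could still have had 7.80 CPM in HOM or 9.00 CPM in WT, the level that 3 counts over the group's summed total stand for. Such limits, and the intervals of ratios below, cover counting error only. Rank correlations across the 15283 genes, which are not independent replicates, were 0.312 to 0.440 between 2 HOM libraries, 0.215 to 0.244 between 2 WT libraries and 0.213 to 0.368 between a HOM and a WT library.

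Most defining markers of acinar cells, and some of islet and duct cells, were absent from all 6 libraries. Of 8 defining acinar genes, 5 had 0 counts in every library: Cpa1 (a carboxypeptidase), Cela2a (an elastase), Ctrb1 (chymotrypsinogen), Prss2 (trypsinogen) and Amy2a5 (pancreatic amylase). Pnlip, the main pancreatic lipase, had 7 counts in WT 11 and 0 elsewhere. Of 7 defining islet genes, Gcg (glucagon), Ppy and Chga had 0 counts in every library. Cftr, the chloride channel of duct cells, had none either. The label of the tissue could not be checked by the absent genes, while Clps, the acinar cofactor of lipase, and Krt19, the duct keratin, had counts and are described below.

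Otub2 itself was counted in every WT library and in 1 HOM library. The gene (ENSMUSG00000021203.15, protein-coding; chromosome 12, positions 103388682 to 103406350, plus strand, mm10) had 1, 0 and 0 counts in HOM 10, HOM 19 and HOM 21, and 3, 4 and 3 counts in WT 11, WT 12 and WT 16. The HET pancreata held few as well, with 0 counts in HET 9, HET 10, HET 11 (total 1326541) and HET 15 and 1 in HET 16. The HOM and WT values did not overlap, at 1.63 ± 2.81 CPM in HOM and 38.6 ± 23.6 CPM in WT (SD, n = 3 each). For HOM 19 alone this is unresolved. Its 0 counts could stand for up to 59.2 CPM, above WT 11 (36.9 CPM) and WT 16 (15.9 CPM). Over the summed counts, HOM held 0.0866 times the WT level, with an exact 95% counting interval of 0.002 to 0.609. A two-sided exact permutation test of the CPM values gave p = 0.1, the smallest that the 20 splits of 3 against 3 allow. With edgeR's quasi-likelihood test and no filter on low counts, the log2 fold change was -3.50 ± 3.44 (SE; Benjamini-Hochberg adjusted p = 0.524), so Otub2 did not pass the threshold. A read from the 3′ end checks the labels only if the deletion removes that end, which is not given.

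Too few of the genes beside Otub2 had counts to describe its flanks. Within 1000000 bases lay 81 genes, 44 of them protein-coding. Of the 81 genes 17 had a count, 1 was tested and 0 were called, beside 0.214% called of all genes tested. None had counts in all libraries of one group and in none of the other. Of all 15283 genes with a count, 0.981% were counted so in HOM alone and 0.327% in WT alone. With 17 genes counted, finding none cannot tell the flanks from other genes. Otub1, the paralog of Otub2 on chromosome 19, had 0 counts in HOM and 1, 1 and 0 in the WT libraries, both groups being at or under the limit of 3 counts. Of the 16 OTU deubiquitinases listed, 7 had a count, 2 of them in more HOM than WT libraries and 4 in more WT than HOM libraries. Among these was Otulin, which removes linear ubiquitin chains, with 6 counts in HOM 21 alone. Otud7b, a deubiquitinase with a role in NF-kB signalling, had 6, 1 and 0 counts in HOM and 1, 0 and 4 in WT.

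Across all genes, 5 were called, and all 5 were higher in HOM: Clps, Tff1, Pla2g1b, Gkn1 and Pgc. Clps and Pla2g1b (pancreatic phospholipase A2) are genes of acinar secretion. Tff1 (a trefoil peptide), Gkn1 (gastrokine) and Pgc (pepsinogen C) are genes of the lining of the stomach. Each of the 5 had 132 counts or more in every HOM library, while the WT libraries held 17 counts or fewer of each. The 5 genes are 0.214% of the 2336 genes that passed the filter on low counts and were tested (edgeR's quasi-likelihood test, Benjamini-Hochberg adjusted p under 0.05), and 63 genes (2.7%) had an unadjusted p under 0.05. In bulk tissue, fewer cells of a type and less RNA per cell cannot be told apart.

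For Clps, Tff1 and Pla2g1b no usable window of sequence before the gene was found. The sequences before Gkn1 and Pgc are shown as description, and shared control of the 5 genes was not tested. Each sequence is the 150 bases before the RefSeq start of the gene (build GRCm38.p6), 5′ to 3′ on the gene's strand. The window of Gkn1 is chr6:87350916-87351065 on the minus strand, and that of Pgc is chr17:47726692-47726841 on the plus strand. The RefSeq start of Gkn1 lies 27 bases inside the gene as GENCODE places it. The last 27 bases of its window thus fall within that gene. Capitals in the Gkn1 window mark AGATAA, a motif of zinc-finger factors of gut epithelium, and the E-box CACCTG. Capitals in the Pgc window mark TATAAA, the core promoter element.
Gkn1: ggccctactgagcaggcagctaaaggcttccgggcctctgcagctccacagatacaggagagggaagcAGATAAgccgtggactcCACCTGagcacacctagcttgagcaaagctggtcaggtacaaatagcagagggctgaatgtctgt
Pgc: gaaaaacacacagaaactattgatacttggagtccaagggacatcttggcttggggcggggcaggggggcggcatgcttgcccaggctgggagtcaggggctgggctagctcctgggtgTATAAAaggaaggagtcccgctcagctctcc

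Counting back from the RefSeq start, AGATAA lies at -82 to -77 and CACCTG at -65 to -60 before Gkn1, and TATAAA at -31 to -26 before Pgc. A 4th motif searched, TTTCCCA, was in neither window. On either strand, AGATAA occurred in 5.647% of 32851 windows of the same length before RefSeq starts, CACCTG in 10.602%, TATAAA in 7.574% and TTTCCCA in 3.979%. The matches describe letters only.

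Clps, which lets pancreatic lipase work on fat in the presence of bile salts, had 613, 529 and 312 counts in HOM 10, HOM 19 and HOM 21, and 1 count in each WT library. Every HOM library was far above every WT library, at 5285 ± 4475 CPM against 11.1 ± 5.32 CPM (SD, n = 3 each). The summed counts give a ratio of 420 with an exact 95% counting interval of 143 to 2039. The log2 fold change was 8.75 ± 0.84 (SE; edgeR, adjusted p = 2.07e-08).

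Tff1, which protects the gastric mucosa, had 385, 328 and 253 counts in the HOM libraries and 0 in all 3 WT libraries. The groups did not overlap, and HOM stood at 3439 ± 2629 CPM (SD, n = 3). Over summed counts, the HOM level of 2512 CPM was at least 279-fold higher than the limit of 3 counts over the WT libraries (edgeR, adjusted p = 5.30e-08). Pla2g1b, which cleaves phospholipids in the gut, had 223, 267 and 174 counts in HOM and 0 in WT, at least 192-fold higher (adjusted p = 8.24e-07, edgeR). Gkn1, secreted by surface cells of the stomach, had 239, 132 and 181 counts in HOM and 0 in WT, at least 159-fold higher (adjusted p = 1.02e-05, edgeR).

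Pgc, the precursor of a stomach protease, had 382, 309 and 366 counts in HOM and 2, 2 and 17 in WT. The highest WT library, WT 16, stood at 90.2 CPM and the lowest HOM library, HOM 10, at 1862 CPM. The ratio of summed counts was 43.6 with an exact 95% counting interval of 28.4 to 70.8, and the log2 fold change was 5.91 ± 0.80 (SE; edgeR, adjusted p = 1.02e-05). For all 5 genes, the CPM was highest in HOM 19, the library with the lowest total, since their counts differed between HOM libraries by less than the totals did. Clps, Tff1 and Pgc lie on chromosome 17 (Clps at 28558149 to 28560766, minus strand; Tff1 at 31161395 to 31165277, minus strand; Pgc at 47726842 to 47734482, plus strand; mm10), Pla2g1b on chromosome 5 (115466262 to 115474722, plus strand) and Gkn1 on chromosome 6 (87345650 to 87350942, minus strand).

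**Figure D1:**
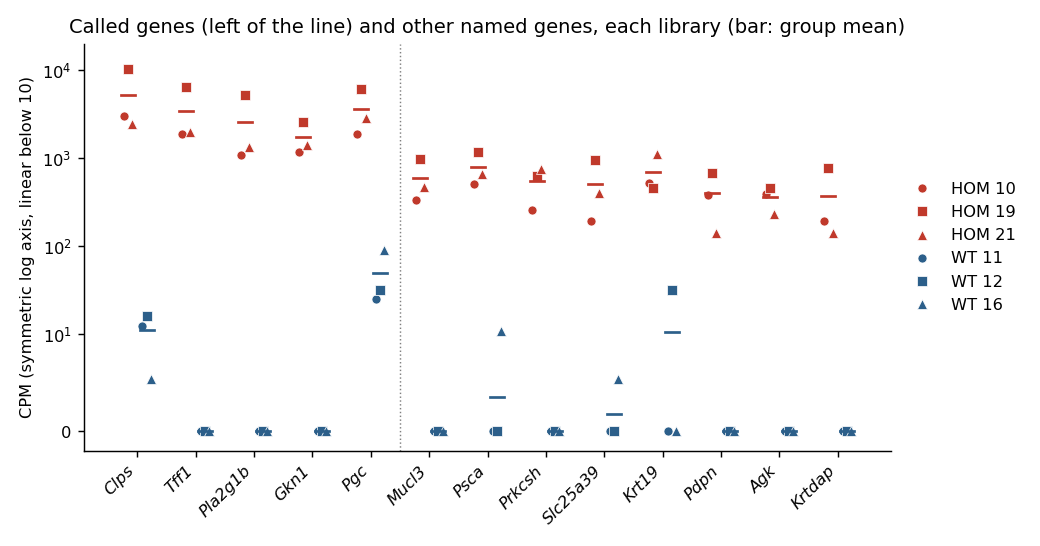
CPM on a symmetric log axis (linear below 10) of 13 genes in each of the 6 libraries, HOM in red and WT in blue, with a bar at each group mean. The 5 genes left of the dotted line passed edgeR's test, and for each of the 13 genes the HOM libraries lie above all WT libraries.

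All 5 genes were called again in each of the 6 fits that left out 1 library, including the fit of males only. They were not called in a fit of all 11 pancreas libraries by genotype (0 genes called, lowest adjusted p = 0.775, with 212 genes at an unadjusted p under 0.05).

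The same 5 genes led other pancreas libraries of the series. In HET 11 they had 188192 (Clps), 104358 (Tff1), 30561 (Pla2g1b), 17196 (Gkn1) and 165171 (Pgc) counts, and in HET 16 they had 25493, 37562, 16606, 7610 and 80604 counts, in the same order. HET 9, a library of 49502 counts, held 406, 420, 373, 303 and 496, whereas HET 15 held 2, 3, 0, 0 and 0. The HOM counts were thus near those of HET 9, and the WT counts near those of HET 15. As a percentage of the HET 11 counts, the HOM counts lay between 0.166 and 0.326 for Clps, 0.242 and 0.369 for Tff1, 0.187 and 0.231 for Pgc, 0.569 and 0.874 for Pla2g1b, and 0.768 and 1.39 for Gkn1. Whether reads carried over between libraries, which would make the HOM counts other than expression in those pancreata, was not tested.

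The 50 genes with the most counts in HET 11 and HET 16 together were counted unequally in the 2 groups. In all 3 HOM libraries 37 of the 50 had a count, against 8 in all 3 WT libraries. For 22 of them every WT library had 0 counts, and for 0 of them every HOM library had. HOM lay above WT without overlap for 28 and below for 1. Such separation held for 8.65% (above) and 3.42% (below) of the 2336 genes tested. That share is an unlike base, since many of the 50, Cox4i1 and Atp4a among them, were not tested. The 50 also include the 5 called genes. The 50 genes made up 1.53%, 4.69% and 1.77% of the counts of HOM 10, HOM 19 and HOM 21, and 0.418%, 0.471% and 0.176% of those of WT 11, WT 12 and WT 16. They made up 57.3% of HET 11, 50.3% of HET 16, 22.1% of HET 9, 3.71% of HET 10 and 0.269% of HET 15.

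**Figure D2:**
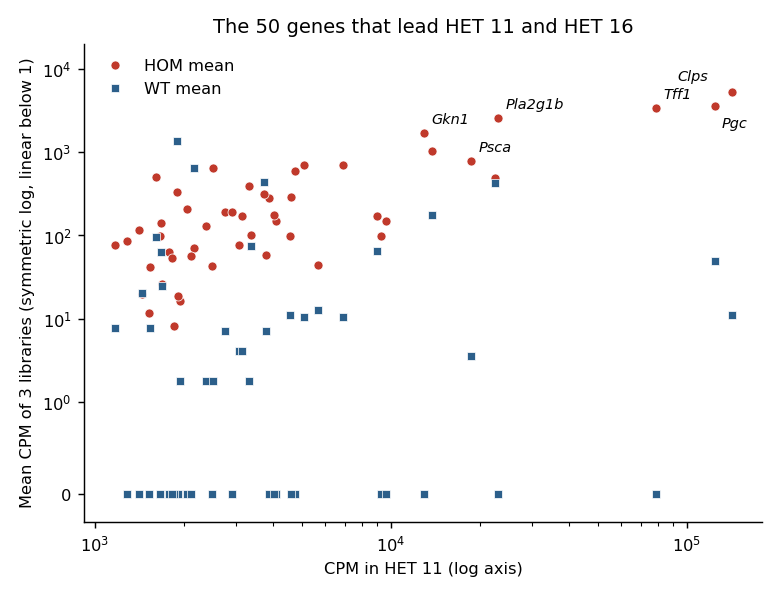
Mean CPM of the 3 HOM libraries (red circles) and of the 3 WT libraries (blue squares), on a symmetric log axis linear below 1, for each of the 50 genes that lead HET 11 and HET 16, against its CPM in HET 11 on a log axis. Of the 50 genes, 22 have 0 counts in all WT libraries and lie at 0, while none does so in HOM.

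A second tool, run on genes that passed the same filter, called more genes in the same direction. DESeq2 gave an adjusted p for 1959 of the 2336 genes and called 14 (0.715%), all higher in HOM: the 5 genes above and Mucl3, Psca, Prkcsh, Krt19, Slc25a39, Pdpn, Rplp1, Agk and Krtdap. Of these 9, Rplp1 falls outside the rule for named genes and was added after its values were seen. The filter on low counts passed 25 of the 150 genes counted in all HOM and no WT libraries. It passed 1 of the 50 genes counted in all WT and no HOM libraries. For genes with 0 counts in a group, passing through the other group fixed the direction in both tools. Their shared direction is thus no separate evidence.

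Mucl3, a mucin-like gene listed here with the stomach genes, had 68, 49 and 60 counts in HOM and 0 in WT. It was at least 51.1-fold higher, with an adjusted p of 0.00201 by DESeq2 and 0.300 by edgeR. Psca, a surface antigen of stomach and other epithelia, had 104, 60 and 85 counts in HOM and 0, 0 and 2 in WT, a ratio of 108 with an exact 95% counting interval of 29.6 to 896 (adjusted p = 0.00227 by DESeq2 and 0.257 by edgeR). Both genes showed all HOM libraries above all WT libraries.

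Krt19, a keratin of duct and other simple epithelia, had 107, 23 and 144 counts in HOM and 0, 2 and 0 in WT (ratio 119, exact 95% counting interval 32.6 to 985; adjusted p = 0.0175 by DESeq2 and 0.593 by edgeR). Without WT 12, the only WT library with Krt19 counts, edgeR called it (adjusted p = 0.0437). Prkcsh, the beta subunit of the glucosidase that trims sugars in the ER, had 53, 32 and 98 counts in HOM and 0 in WT, at least 52.9-fold higher (adjusted p = 0.00251 by DESeq2 and 0.310 by edgeR). Slc25a39, a mitochondrial carrier of glutathione, had 39, 48 and 52 counts in HOM and 0, 0 and 1 in WT (adjusted p = 0.0175 by DESeq2 and 0.698 by edgeR).

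Pdpn (podoplanin), Agk (acylglycerol kinase) and Krtdap (a protein of differentiating keratinocytes) had 0 counts in every WT library. Pdpn had 78, 34 and 18 counts in HOM, at least 37.5-fold higher (adjusted p = 0.0267 by DESeq2 and 0.688 by edgeR). Agk had 81, 23 and 30, at least 38.7-fold higher (adjusted p = 0.0339 by DESeq2 and 0.688 by edgeR). Krtdap had 39, 39 and 18, at least 27.7-fold higher (adjusted p = 0.0419 by DESeq2 and 0.698 by edgeR). Unlike the called genes, Pdpn and Agk were nearly absent from HET 11, with 0 and 4 counts.

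The number of libraries with a count gave the plainest view of such genes. Of the 15283 genes with a count, 150 (0.981%) had counts in all 3 HOM and in 0 WT libraries, and 50 (0.327%) in 0 HOM and in all 3 WT libraries. Those in HOM alone held more counts: 30 of the 150 had at least 10 counts in every HOM library, against 1 of the 50 in every WT library, the pseudogene Gm7449, named here after its values were seen. The median count in the lowest of the 3 libraries was 3 in the first set and 1 in the second. Of the 150 genes 108 were protein-coding, and of the 50 genes 34. Both HET 11 and HET 16 had counts of 65 of the 150 genes (43.3%) and of 11 of the 50 (22.0%), beside 23.8% of all 15283 genes. Of the 834 genes counted in all 6 libraries, both had counts of 63.7%. The median summed count was 36 for the 150 genes, 20 for the 50, 12 for all and 218 for the 834. The bases are thus unlike in abundance, and its part in these shares was not tested. The excess in HOM depended on the libraries used. Without WT 11, 207 genes were counted in HOM alone and 220 in WT alone, and without WT 12, 202 and 266. Depth differed between the libraries, and its part in these numbers was not tested. Scaled to the lowest total of 50663 counts, the numbers of genes expected overlapped between the groups. They were 6245, 3955 and 5697 in HOM and 4361, 3986 and 6251 in WT.

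**Figure D3:**
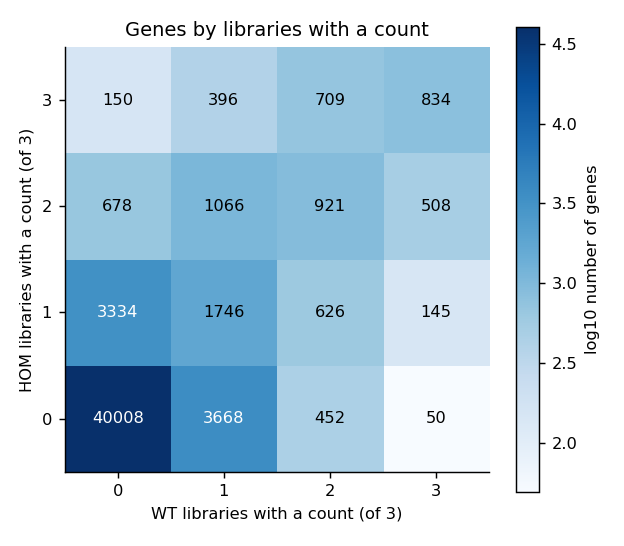
Number of genes by how many of the 3 WT libraries (horizontal axis) and of the 3 HOM libraries (vertical axis) held at least 1 count, with shading by the log10 number of genes. The corner with counts in all HOM and no WT library holds 150 genes, the opposite corner holds 50, and 834 genes were counted in all 6 libraries.

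The genes counted in WT alone were few and thinly covered. Mcm10, a factor of DNA replication, had 8, 8 and 75 counts in WT 11, WT 12 and WT 16 and 0 in HOM, at least 35.0-fold higher in WT (edgeR, adjusted p = 0.814). Rps27, a ribosomal protein, had 7, 15 and 23 counts in WT, at least 17.3-fold higher. Phlpp1, a phosphatase that acts on AKT, had 4, 20 and 14, at least 14.6-fold higher. Mcm10 did not pass the test, and the other 2 fell below the filter and were not tested. The remaining genes named by the rule, each with 0 counts in HOM, were Zfp939 (a transcribed pseudogene with 16, 28 and 8 counts in WT), Nipsnap2, Trim52, Mars2 (the mitochondrial methionyl-tRNA synthetase) and Ipo9 (a nuclear import receptor), the last 4 at least 12.7-, 11.2-, 8.46- and 3.46-fold higher in WT.

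Stomach genes as a group were seen mostly in HOM. Of 23 listed genes of the stomach mucosa 15 had a count, and 13 of these were counted in more HOM than WT libraries and 0 in more WT than HOM libraries. Over all 15283 genes with a count, 41.4% were counted in more HOM libraries and 35.7% in more WT libraries. The list held 0.544%, 1.77% and 0.711% of the counts of HOM 10, HOM 19 and HOM 21, and 0.00246%, 0.00315% and 0.0106% of those of WT 11, WT 12 and WT 16, without overlap. In HOM this share was mostly Pgc, Tff1, Gkn1 and Mucl3, so it repeats those single genes. The same list held 23.4% of the counts of HET 11, 19.7% of HET 16 and 2.71% of HET 9. It held 0.198% of HET 10 and 0.00369% of HET 15. Counts in all 3 HOM and 0 WT libraries were found for 8 members: Tff1, Gkn1 and Mucl3 (above), Tff2, Gkn2, the mucins Muc5ac and Muc6, and Atp4a, the catalytic subunit of the acid pump of parietal cells.

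Atp4a had 1, 38 and 15 counts in the HOM libraries, and Tff2, a trefoil peptide of mucous neck cells, 1, 18 and 28. In both, HOM 10 was the lowest although its total was the highest. Muc6, the gland mucin, had 7, 13 and 2 counts, Muc5ac, the surface mucin, 10, 3 and 3, and Gkn2, a gastrokine, 5, 7 and 2. Atp4b, the other subunit of the acid pump and a defining stomach marker, had 0 counts in all 6 libraries. Of the list 4 genes were tested and 3 called, with a median log2 fold change of 9.78 beside 0.08 over all genes tested. These 4 (Tff1, Gkn1, Mucl3 and Pgc) passed the filter on low counts through their HOM counts. The filter thus fixed their direction, and the median repeats the single genes above. The members without WT counts also make this median depend on the fit's prior count.

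Acinar enzymes differed among themselves. Of 38 listed genes only 8 had a count, 2 of them in more HOM than WT libraries (Pla2g1b among them) and 4 in more WT than HOM libraries. The list's share of counts was higher in HOM, at 0.423%, 1.60% and 0.421% against 0.116%, 0.0173% and 0.0154% in WT 11, WT 12 and WT 16. In HOM it was mostly Clps and Pla2g1b. Pnliprp1, a lipase-related acinar protein, had 32, 14 and 56 counts in HOM and 81, 10 and 1 in WT, so the groups overlapped (log2 fold change -0.37, edgeR, adjusted p = 0.999). Cela1, an elastase, was seen in WT 16 alone, with 26 counts. The median log2 fold change of the 3 tested members was 8.75, the value of Clps itself. Clps and Pla2g1b passed the filter through their HOM counts, which fixed their direction. In the fit with no filter the median of the list fell below 0.

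Skin and forestomach genes, the squamous epithelium of the upper stomach among them, were also counted in more HOM libraries: 10 of 11 with a count, against 1 in more WT libraries. Their share was 0.0449%, 0.162% and 0.0381% in HOM and 0%, 0.0347% and 0.00318% in WT. Trp63, the transcription factor of squamous stem cells, had 40, 23 and 19 counts in HOM and 0, 0 and 5 in WT (log2 fold change 4.31, edgeR, adjusted p = 0.999). Krt13, a keratin of moist squamous epithelium, had 0, 8 and 9 counts in HOM and 0 in WT, and the basal keratin Krt5 had 0 in all 6 libraries.

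The islet lists overlapped between the groups in their share of counts, although the counted hormone genes were seen in more HOM than WT libraries. Ins1, one of the mouse insulin genes, had 51, 0 and 16 counts in HOM and 0, 0 and 79 in WT, which overlap (log2 fold change -0.28, edgeR, adjusted p = 0.999). Ins2 had 3 counts in HOM 19 and 0 elsewhere. Pax6, an islet transcription factor, had 298, 47 and 67 counts in HOM and 148, 18 and 190 in WT, again overlapping (log2 fold change -0.14, edgeR, adjusted p = 0.999). Of the 25 beta-cell genes listed, 11 had a count, 4 in more HOM and 3 in more WT libraries. Of the 8 islet hormone genes, 5 had a count, all 5 in more HOM than WT libraries, while the share of the list overlapped between the groups.

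Among 19 duct markers, 12 had a count, 8 in more HOM and 2 in more WT libraries, but the share of the list overlapped between the groups. Besides Krt19, Krt18 had 21, 12 and 22 counts in HOM and 1, 0 and 0 in WT (log2 fold change 5.10, edgeR, adjusted p = 0.999). Sox9, a transcription factor of duct cells, had 10, 8 and 10 counts in HOM and 1, 5 and 13 in WT, which overlap in CPM. Ghrl (ghrelin), a hormone of stomach and islet cells, had 10, 5 and 11 counts in HOM and 0, 0 and 1 in WT, without overlap.

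**Figure D4:**
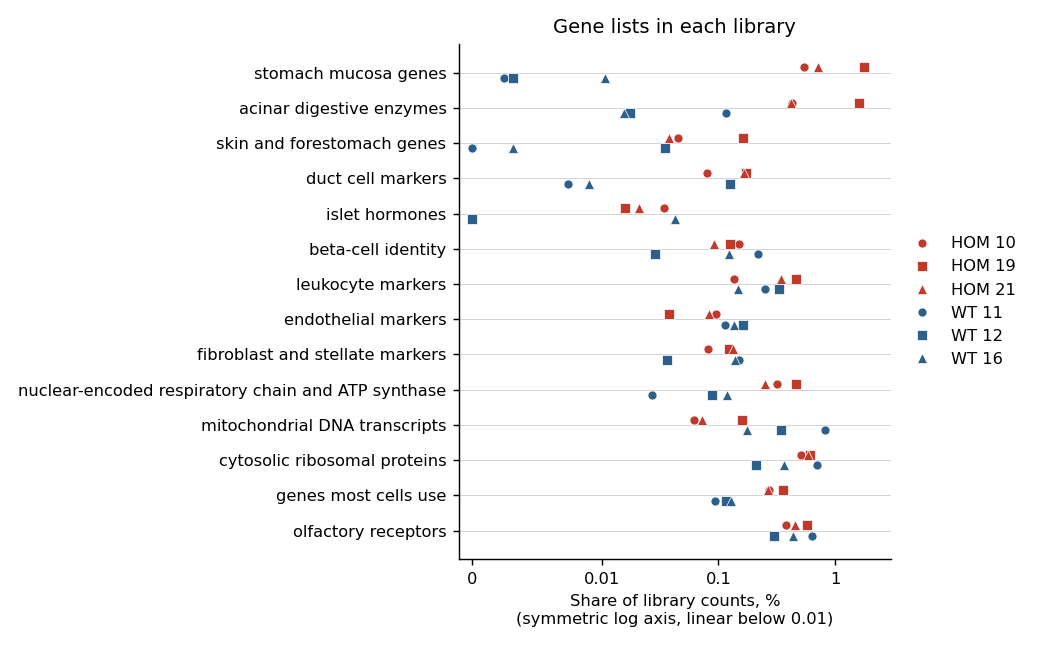
Share of library counts in percent (symmetric log axis, linear below 0.01) held by each of 14 gene lists in each of the 6 libraries, HOM in red and WT in blue. Stomach and acinar genes, skin and forestomach genes, respiratory chain genes and genes most cells use lie higher in all HOM than in all WT libraries, and mitochondrial DNA transcripts and endothelial markers lie lower.

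Genes of mitochondrial respiration split by where they are encoded. Of 82 respiratory chain and ATP synthase genes of the nucleus, 61 had a count, 49 of them in more HOM than WT libraries and 6 in more WT than HOM libraries. Their share was 0.319%, 0.458% and 0.251% in HOM and 0.0271%, 0.0882% and 0.118% in WT 11, WT 12 and WT 16, without overlap. Of the list 0 genes were called. Only 4 of the 61 were tested, with a median log2 fold change of 2.35 beside 0.08 over all genes tested. Ndufa2 (below), 1 of the 4, passed the filter on low counts through its HOM counts, which can lean the sign.

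Counts in all 3 HOM and 0 WT libraries were found for 6 of these genes. Atp5d, the delta subunit of ATP synthase, had 58, 11 and 3 counts, and Cox6b1, a subunit of cytochrome oxidase, 43, 5 and 3. Ndufa11, of complex I, had 7, 15 and 6 counts. The others, Atp5k, Ndufa6 and Uqcr10, each had 1 count in HOM 19. Ndufa2, of complex I, had 109, 7 and 49 counts in HOM and 0, 7 and 10 in WT (log2 fold change 2.69, edgeR, adjusted p = 0.999), with HOM 19 barely above WT 12 in CPM. The same list held 3.79% and 3.88% of the counts of HET 11 and HET 16, and 0.174% of those of HET 15; its part in the difference between HOM and WT was not tested.

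Transcripts of mitochondrial DNA went the other way. Of 37 listed genes 16 had a count, 2 in more HOM and 8 in more WT libraries, and their share was 0.0619%, 0.158% and 0.0730% in HOM and 0.814%, 0.342% and 0.177% in WT. All 5 tested members had a log2 fold change below 0 (median -2.53, beside 0.08 over all genes), and 0 were called. mt-Nd5, which codes for part of complex I, had 86, 5 and 15 counts in HOM and 273, 36 and 106 in WT, without overlap in CPM (log2 fold change -2.73 ± 0.92, SE; edgeR, adjusted p = 0.698). mt-Rnr1, the small ribosomal RNA of mitochondria, had 9, 3 and 2 counts in HOM and 46, 26 and 29 in WT (log2 fold change -3.27 ± 1.96, SE; edgeR, adjusted p = 0.999). mt-Nd2, also of complex I, had 4, 3 and 26 in HOM and 66, 33 and 64 in WT. mt-Cytb, the cytochrome of complex III, had 8, 32 and 26 counts in HOM and 21, 76 and 43 in WT, and there the groups overlapped in CPM.

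Of the 834 genes counted in all 6 libraries, 60 (7.19%) were above WT in every HOM library and 37 (4.44%) below. Actb (beta-actin) had 155, 67 and 130 counts in HOM and 19, 12 and 20 in WT, 1029 ± 284 against 176 ± 64.9 CPM (SD, n = 3 each; log2 fold change 2.50 ± 1.02, SE; edgeR, adjusted p = 0.999). Actb is also among the 50 genes that lead HET 11 and HET 16, with 18295 and 8636 counts there. Pid1, an adaptor that dampens insulin signalling, had 244, 116 and 86 counts in HOM and 9, 8 and 52 in WT (log2 fold change 2.82 ± 0.92, SE; edgeR, adjusted p = 0.688). Itgb4, the integrin that anchors epithelia to the basement membrane, had 253, 94 and 68 counts in HOM and 10, 11 and 45 in WT (log2 fold change 2.60, edgeR, adjusted p = 0.817). In each of these 3 genes every HOM library was above every WT library, yet none passed the test.

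Galc (galactosylceramidase), Lpl (lipoprotein lipase) and Trim12a were also separated without overlap, with log2 fold changes of 2.86, 2.66 and 2.78 (edgeR, adjusted p = 0.999 for each). In the other direction Ppp1r9a, which organises actin at synapses, had 8, 3 and 2 counts in HOM and 25, 54 and 39 in WT (log2 fold change -3.62 ± 1.91, SE; edgeR, adjusted p = 0.999). Zbtb7a, a transcriptional repressor, had 22, 3 and 6 counts in HOM and 37, 76 and 53 in WT. Naa40, which acetylates histones H4 and H2A, had 34, 1 and 11 in HOM and 52, 55 and 57 in WT. Zbtb7a and Naa40 did not overlap between the groups and had log2 fold changes of -3.12 and -2.61. Srrm1, a splicing factor, had 31, 2 and 12 counts in HOM and 94, 28 and 25 in WT (log2 fold change -2.49), and its groups overlapped in CPM. Hook3, a dynein adaptor, had 49, 4 and 1 in HOM and 8, 58 and 122 in WT (log2 fold change -2.35), also with overlap.

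**Figure D5:**
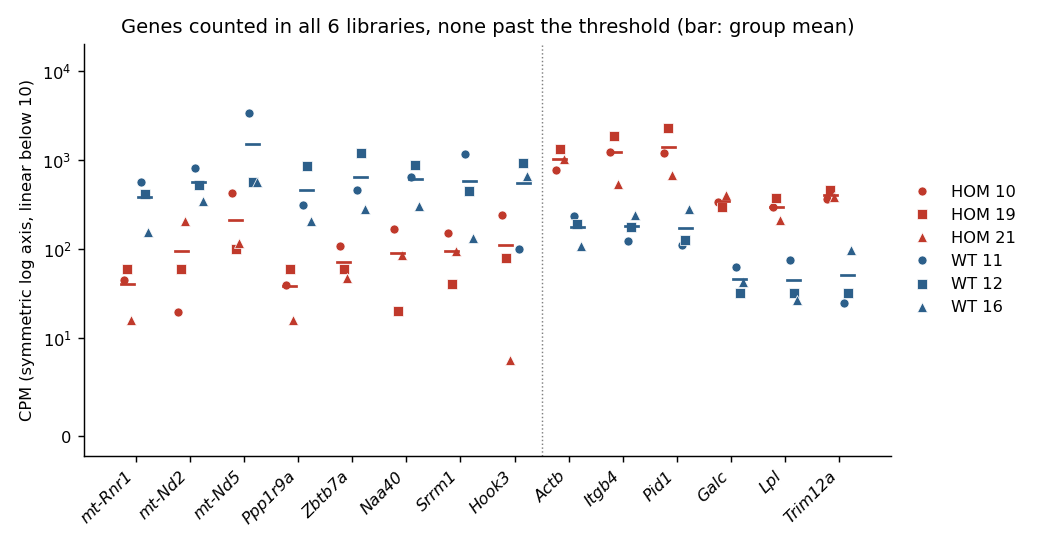
CPM on a symmetric log axis (linear below 10) in each of the 6 libraries, HOM in red and WT in blue, of 14 genes counted in all of them, with a bar at each group mean. Left of the dotted line are the 8 genes with the lowest fold changes and right of it 6 of the 8 with the highest (Clps and Pgc are plotted among the called genes); none of the 14 passed the test.

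The 20 genes that most cells use had a larger share of counts in HOM, at 0.273%, 0.359% and 0.267% against 0.0936%, 0.117% and 0.129% in WT. Of the 20 genes 16 had a count, 7 in more HOM and 4 in more WT libraries. Of 4 tested, 0 were called. The list held 2.03% and 2.00% of the counts of HET 11 and HET 16, and 0.140% of those of HET 15. Its part in the difference between HOM and WT was not tested. Hsp90ab1, a chaperone, had 39, 28 and 14 counts in HOM and 0 in WT, at least 23.4-fold higher (edgeR, adjusted p = 0.814). It is among the 50 genes that lead HET 11 and HET 16. Eef2, the translation elongation factor, had 301, 71 and 148 counts in HOM and 49, 40 and 164 in WT (log2 fold change 0.86, edgeR, adjusted p = 0.999). Predicted genes with Gm symbols took a smaller share in HOM, at 26.2%, 26.2% and 24.4% against 31.7%, 30.3% and 27.0% in WT. That share includes Gm10800 and the 3 other genes described below, and was not computed without them. Of the 590 predicted genes tested, 297 had a log2 fold change above 0 and 293 below, and 0 were called. Their median was 0.01, beside 0.08 over all genes tested, so the class as a whole did not shift.

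Among them, Gm10800 (chromosome 2, 98666547 to 98667301, minus strand, mm10) took 0.550%, 1.20% and 0.249% of the counts in HOM 10, HOM 19 and HOM 21 and 4.91%, 4.54% and 1.29% in WT 11, WT 12 and WT 16, without overlap. Its log2 fold change was -2.50 ± 0.59 (SE; edgeR, adjusted p = 0.0755), short of the threshold. It was called lower in HOM in 8 of 15 alternatives, among them 5 of the 6 fits that left out 1 library, with adjusted p from 4.61e-14 to 1. Its neighbour Gm10801 and the genes Gm21738 and Gm10717 had log2 fold changes of -2.38, -2.68 and -2.76 and adjusted p of 0.146, 0.172 and 0.510 (edgeR). The naming rule leaves out predicted genes, so these 4 were chosen after their values were seen.

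The genes of OTUB2's reported substrates overlapped between the groups in their share of counts. Of 10 listed substrates, 7 had a count, 2 of them in more HOM and 0 in more WT libraries. Rnf8, a ubiquitin ligase of the DNA damage response, had 190, 49 and 119 counts in HOM and 93, 36 and 174 in WT (log2 fold change 0.04, edgeR, adjusted p = 0.999). L3mbtl1, a chromatin reader, had 63, 1 and 48 in HOM and 31, 2 and 33 in WT. Both overlapped between the groups. Wwtr1, which encodes TAZ, had 2, 0 and 11 counts in HOM and 0 in WT.

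Of 12 YAP and TAZ target genes 5 had a count, 4 in more HOM and 1 in more WT libraries. Their share of counts was small and higher in HOM without overlap, at 0.0122%, 0.0217% and 0.0241% against 0.00246%, 0.00788% and 0% in WT 11, WT 12 and WT 16, and none was tested. Ccn1, a matrix protein and a direct target of YAP, had 4, 11 and 12 counts in HOM and 0, 5 and 0 in WT, which overlap in CPM. Of the 12 genes, 0 lay above WT without overlap on their own. Of 38 components of the NF-kB pathway 21 had a count, 11 in more HOM and 1 in more WT libraries, and of 25 NF-kB targets 18 had one, 7 in more HOM and 4 in more WT. The shares of both lists overlapped between the groups. Nfkbia, the inhibitor of NF-kB and itself a target, had 18, 2 and 9 counts in HOM and 7, 2 and 14 in WT. Map3k14, the kinase of the non-canonical pathway, had 151, 13 and 92 in HOM and 1, 113 and 30 in WT (log2 fold change -0.10, edgeR, adjusted p = 0.999). In neither gene did the groups separate.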

How the data were processed

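Per the labels' protocols, TRI reagent was used to extract RNA from whole pancreas, and a bulk version of MARS-seq to make libraries. Cutadapt, STAR and mm10 are named in the submitters' processing notes. Tool versions, how reads were counted, on which annotation and strand, and whether molecular barcodes were collapsed are not given in the sources used here. Whole-number counts per gene fill the table deposited by the authors, which its name calls corrected without stating the correction, and p-values assume that they still behave as raw counts. Of 55291 symbols, 53292 matched GENCODE mouse release 21. All columns were assigned to samples (0 left over). The submitters' replicate numbers differ between the groups and pair no samples.

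The 6 libraries alone were fitted with edgeR 4.0.16 (R 4.3.3). Low genes were removed by filterByExpr, libraries scaled by TMM (factors 0.915 to 1.19), and genotype tested by the robust quasi-likelihood F test. P-values were adjusted by Benjamini-Hochberg over the 2336 genes tested, with a threshold of 0.05. The common dispersion was 1.62 (a biological coefficient of variation of 127%), with 4 residual degrees of freedom. Genes without a count in a group were set, by the summed counts of the other group, against 3 counts over that group.

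Named genes were Otub2 and Otub1, the 8 largest and 8 smallest log2 fold changes among genes counted in all 6 libraries with at least 20 counts, the 8 genes with the highest lowest count among those counted in 1 group only, in each direction, genes called by edgeR or DESeq2 (up to 10 each), and up to 4 members of a list with counts in the most libraries. Predicted genes and receptor segments were left out. In the stomach list, members counted in HOM alone and, in the lists of respiration and of acinar, islet and duct genes, defining markers were named besides. The members and lists were chosen with earlier results of these data known.

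Alternatives were DESeq2 1.42.0, other scalings, other filters on low counts, no robust fit, all 11 pancreas libraries, males only and leaving out each library in turn. Leaving out libraries in the counts of genes by detection was added after the data were seen.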

Additional observations from a re-analysis of the deposited data

Results flagged for a closer look

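HET 11 and HET 16, which are no part of the HOM and WT groups, held the 5 called genes above every WT and every HOM library. In HET 11, Clps stood at 141867 CPM, Tff1 at 78669.3, Gkn1 at 12963 and Pgc at 124513 CPM. Pla2g1b was highest in HET 16, at 24763.3 CPM. The WT libraries held at most 15.8 CPM of Clps and 90.2 CPM of Pgc and had 0 counts of the other 3 genes.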

How the results depend on the processing

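The number of genes called was 5. It was 14 with DESeq2, 9 with a filter of a mean of at least 50 CPM, and 0 with all 11 pancreas libraries in the fit, where the cause was not tested. Leaving out 1 library gave 5 to 9 genes: 9 without HOM 19 (5 higher and 4 lower in HOM), 8 without WT 11 and 8 without WT 12; fewer libraries also changed which genes passed the filter. Of the calls 100% were higher in HOM, but 50% of 6 with counts in at least 4 libraries, a filter that left 2 of the 5 genes to test. With no filter 4 of the 5 genes were called, and Pgc was not (adjusted p = 0.509). Scaling by DESeq2 size factors, by total counts or without the acinar enzymes kept all 5.

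The log2 fold change of Otub2 lay between -4.91 and -3.07 over the fits that left out 1 library and never passed the threshold. Of 409 values of 28 named genes under the alternatives, 0 changed sign, 6 lost the call and 9 gained it. Genes counted in 3 HOM and 0 WT libraries numbered 150, and 202 to 565 without 1 library (565 without HOM 19, 437 without WT 16, 309 without HOM 21, 254 without HOM 10). Genes counted in 0 HOM and 3 WT libraries numbered 50, 23 with at least 2 counts in each, and 63 to 266 without 1 library (266 without WT 12, 220 without WT 11, 141 without HOM 10, 116 without WT 16, 91 without HOM 21). Fewer libraries make these conditions easier to meet. Of genes counted in all libraries, 60 lay above without overlap, 39 with at least 3 counts in every library, and 116 to 155 without any 1 library; 37 lay below, and 63 to 114 without any 1 library. The median of a list changed sign in 1 alternative for acinar enzymes (no filter), and in 0 for stomach, respiratory chain, mitochondrial DNA and glycolysis genes. For stomach genes the filter on low counts fixed the sign in the main fit, and of the respiratory chain genes only 4 were tested. No paired analysis was possible because the groups share no replicate number. Totals near 50663 counts leave most genes at 0 to a few counts, so a gene without counts was not detectable at this depth and may not be absent.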

Other observations

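Immune and secretory genes were among the better counted. S100a8 and S100a9, calcium-binding proteins of neutrophils, had 58, 67 and 113 and 129, 118 and 246 counts in HOM, and 40, 53 and 78 and 69, 97 and 135 in WT (log2 fold changes 0.42 and 0.59; edgeR, adjusted p = 0.999 for both). Lcn2, an iron-sequestering protein of neutrophils and injured epithelia, had 95, 80 and 150 counts in HOM and 54, 67 and 144 in WT. The groups overlapped in CPM for all 3 genes. Of 26 interferon-stimulated genes, 23 had a count, 9 in more HOM and 3 in more WT libraries, and their share overlapped between the groups. Endothelial markers held 0.0960%, 0.0375% and 0.0823% of counts in HOM and 0.115%, 0.164% and 0.136% in WT, lower in every HOM library; of the 4 tested none was called, and Cdh5, a defining marker, had 0 counts in all 6.

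Cytosolic ribosomal protein genes were counted in more HOM libraries for 35 of 68 and in more WT libraries for 17, with overlapping shares. Olfactory receptor genes, which pancreas is not known for, held 0.379%, 0.572% and 0.452% of counts in HOM and 0.635%, 0.299% and 0.432% in WT, and 0.0142% in HET 11. Single libraries held most counts of some genes: Trim30a, a gene induced by interferon, had 1217 counts in HOM 21, 1 in HOM 10 and 0 in the other 4, and Gm48561 had 667, 627 and 9 counts in HOM and 1, 0 and 0 in WT. Both were chosen after their values were seen.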
